A study of Mus musculus with 8 samples.

Results

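To examine the cell skeleton of *Hdac3* KO mouse cardiac endothelial cells (MCECs), the genes of actin, myosin, tubulin, intermediate filament and contractile proteins were compared between *Hdac3* KO and empty vector (EV) MCECs in bulk RNA-Seq libraries. The members are the protein-coding genes of the deposited table whose symbols belong to the actins, alpha-actinins, actin-related proteins, Arp2/3 subunits, myosin light and heavy chains, unconventional myosins, tropomyosins, calponins, transgelins, leiomodins, keratins, vimentin, filamins, alpha, beta and gamma tubulins, talins, vinculin, Csrp and Pdlim proteins, cofilins, profilins and gelsolin. The rule reads symbols and no values, although it was set with earlier results of these data known. The rule found 80 of the 8278 genes of the table, and these fell into 14 groups by role. In the GENCODE annotation of the mm10 build, 187 protein-coding genes meet the rule, and those outside the table, among them *Actg1*, *Actc1*, *Arpc2*, *Tpm2*, *Tpm4*, *Cnn1* and *Myh11*, were not analysed here.

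MCECs are an established mouse line. EV MCECs (4 libraries) received a lentivirus with the empty vector, and *Hdac3* KO MCECs (4 libraries) received a lentiCRISPR vector that carries Cas9 and a guide RNA against *Hdac3*, so both groups carry a vector. Whether the *Hdac3* KO cells are 1 clone or a mixed population is not given in the sources used here. Nor do the labels say that the 4 libraries of a group came from separate cultures, so the p-values measure the spread between these libraries, which may be technical.

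Actin filaments are built from a few nearly identical actins, nucleated as branched networks by the Arp2/3 complex, bundled by alpha-actinins and filamins, and tied to integrin adhesions by talin and vinculin. Myosin II slides on them to make force, and tropomyosins, calponins and transgelins set where and how it does so. Microtubules of alpha and beta tubulin and intermediate filaments of vimentin and keratins form the other networks. Smooth muscle alpha-actin, transgelin and the myosin light chain *Myl9* are textbook genes of contractile smooth muscle cells that mesenchymal cells in culture also express. Many such genes carry CArG boxes, the DNA element that serum response factor (SRF) binds.

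The libraries held 15775327 to 22255684 reads in all, and the listed genes took 84.3% to 85.9% of these. *Hdac3* itself had 2058 ± 85 normalized counts in EV and 1513 ± 41 in *Hdac3* KO MCECs (SD, n = 4), with no overlap between the groups (log2 fold change -0.45). A normalized count is the read count divided by the relative library size, and a gene was called at an adjusted p under 0.01 in the quasi-likelihood test of edgeR, adjusted by Benjamini-Hochberg across the 8278 genes. Log2 fold changes compare *Hdac3* KO with EV MCECs and are given ± their standard error, with the adjusted p of that test. The table was deposited as a selection of genes with the authors' adjusted p under 0.05, so 96.7% of its genes were called here. Of 16 endothelial markers, 7 were in the table and *Pecam1*, a defining one, was nearly absent, with 0.00802 FPKM (fragments scaled to gene length and library total) in EV and 0.0569 in *Hdac3* KO MCECs. *Kdr* and *Tek* were also low, at 0.391 and 0.779 FPKM in EV MCECs, whereas *Cd34* was at 94.3. *Cdh5*, *Tie1*, *Erg* and *Vwf* were not analysed here.

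The 80 genes did not move as a block. In *Hdac3* KO MCECs 42 of them were lower (49.6% of all listed genes were lower) and 35 were higher (47.1% of all listed genes), and *Actr1a*, *Actr10* and *Pdlim7* were not called. Beyond a log2 fold change of 1 in size, 8 were lower (8.36% of all listed genes) and 5 were higher (4.43%). These shares are near those of the whole table. Library totals alone, without TMM factors, gave another split: this scaling moves the median of all genes by -0.12 on the log2 scale, and 42 were lower and 25 higher, 4 of them by more than 1. The groups did not overlap in 73 of the 80 genes (91.1% of all listed genes), 40 of them lower (46.6%) and 33 higher (44.4%), which gives p = 0.0286 in the two-sided exact permutation test, the smallest that 4 libraries against 4 allow. The median log2 fold change was -0.12, against 0.06 over the table, and the median size of change was 0.34, against 0.40. In bulk RNA, fewer cells that express a gene and less RNA of it per cell cannot be told apart.

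The plot of log2 fold changes by role gives 78 of the 80 genes. All filament crosslinkers, alpha tubulins and beta tubulins were higher, although *Tubb5* turned to the other side of 0 and the talins, *Tubb4a* and *Tubb4b* lost their calls with library totals. Most myosin light chains, tropomyosins and calponins, unconventional myosins and LIM proteins were lower. The 80 genes together took 2.74% ± 0.03 of all reads in EV and 2.77% ± 0.04 in *Hdac3* KO MCECs (SD, n = 4). Within that total the crosslinkers and adhesion linkers went from 0.320% to 0.405% of reads and the actin isoforms from 0.388% to 0.484%, while vimentin and keratins went from 0.353% to 0.277%.

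**Figure D1:**
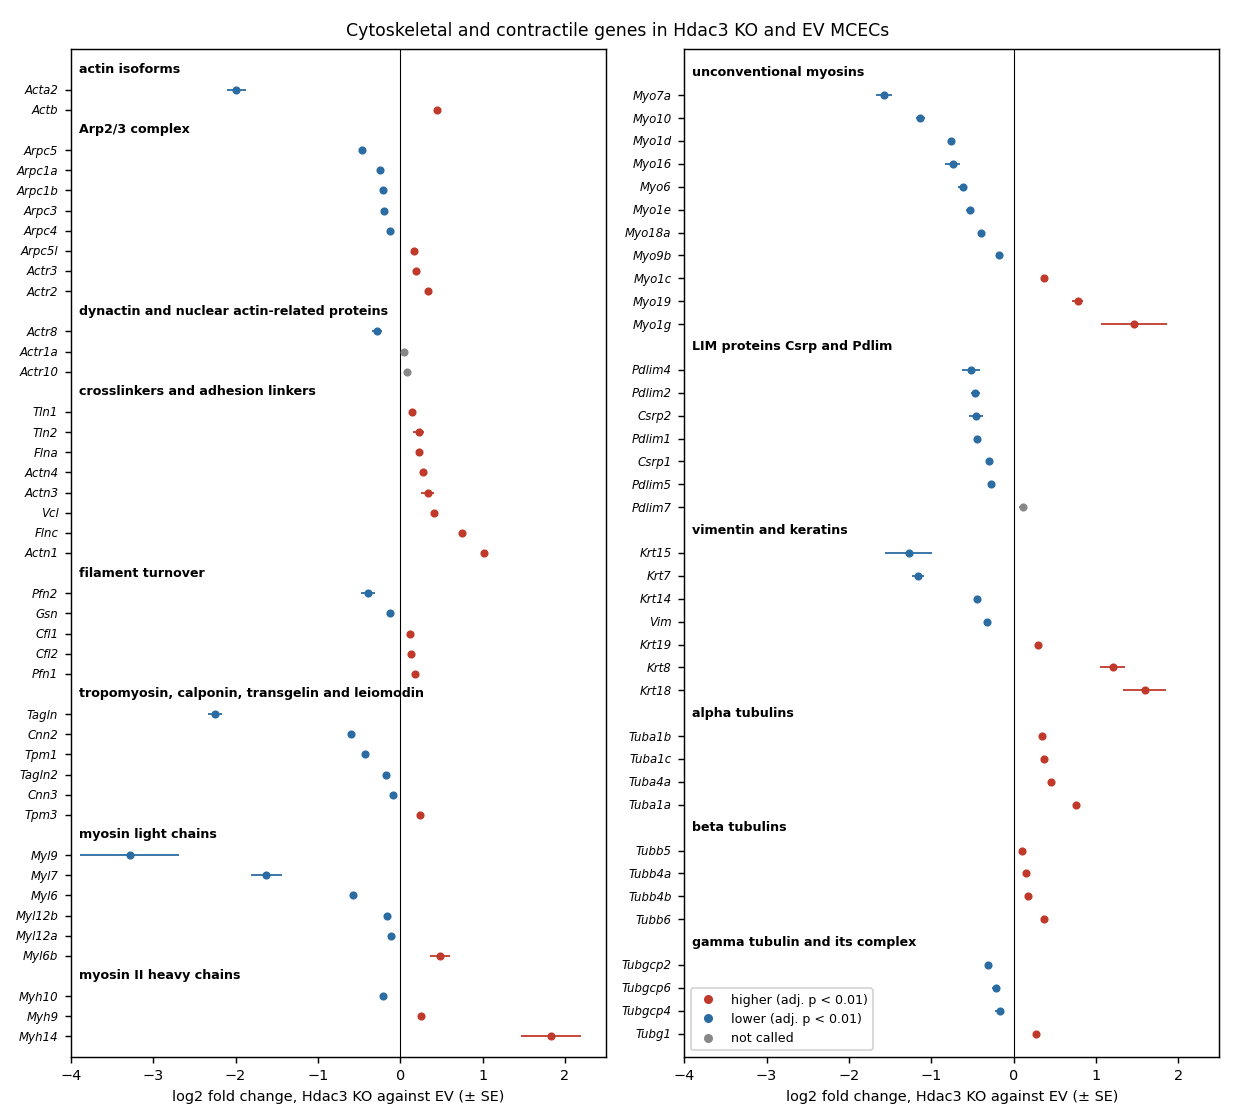
Log2 fold change (*Hdac3* KO against EV MCECs, horizontal axis, with its standard error) of 78 of the 80 cytoskeletal genes, grouped by role. Red and blue points are genes called higher and lower, and grey points the 3 genes not called; the 8 crosslinkers drawn and the 8 alpha and beta tubulins lie to the right of 0 (under library totals *Tubb5* turns to -0.0099), and *Myl9* lies farthest to the left.

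The actin isoforms moved in opposite directions. *Actb*, the cytoplasmic beta-actin (ENSMUSG00000029580, minus strand of chromosome 5, 142903115 to 142906754), was the most abundant of the 80 genes, with 2012 FPKM in EV MCECs. EV replicates 1 to 4 held 70701, 72813, 72828 and 74117 normalized counts of it, and *Hdac3* KO replicates 1 to 4 held 98076, 95509.6, 97527 and 103779. Each *Hdac3* KO library lay above each EV library, and the log2 fold change was 0.44 ± 0.03, adjusted p = 2.4e-17. *Acta2*, the smooth muscle alpha-actin (ENSMUSG00000035783, minus strand of chromosome 19, 34241090 to 34255336), had 249, 308, 213 and 287 in the EV and 73.7, 64.0, 63.1 and 65.6 in the *Hdac3* KO libraries. All 4 *Hdac3* KO values were below the lowest EV value, the means being 264 ± 41.9 (EV) and 66.6 ± 4.82 (*Hdac3* KO; SD, n = 4), with a log2 fold change of -1.99 ± 0.12, adjusted p = 2.5e-17. Per length, *Acta2* made up 0.391% ± 0.059 of the FPKM of this pair in EV and 0.0727% ± 0.0057 in *Hdac3* KO MCECs (SD, n = 4), so that *Actb* was nearly all of it in both groups. Other genes share 9.12% of the 50-base stretches of *Actb* transcripts, and reads from *Actg1*, which was not analysed here, were not separated from it by any step done here.

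Transgelins, calponins and tropomyosins bind along actin filaments. *Tagln*, which encodes the actin binding protein transgelin (ENSMUSG00000032085, minus strand of chromosome 9, 45929628 to 45936058), had 576, 581, 524 and 639 normalized counts in EV and 118, 98.8, 134 and 139.7 in *Hdac3* KO MCECs. The groups lay far apart, at 580.1 ± 47.0 (EV) and 122.5 ± 18.3 (*Hdac3* KO; SD, n = 4), a log2 fold change of -2.25 ± 0.08, adjusted p = 9.2e-23. On the other strand, an annotated gene covers 67.9% of *Tagln* exon sequence, and whether reads were counted by strand is not given in the sources used here. *Cnn2*, a calponin of non-muscle and smooth muscle cells, had 1927, 1992, 1979 and 1967 in EV and 1306, 1228, 1238 and 1409 in *Hdac3* KO MCECs, again without overlap (log2 fold change -0.60 ± 0.04, adjusted p = 2.8e-16). *Tpm1*, the alpha tropomyosin gene that stabilises actin filaments, went from 14429.7, 13909, 14294 and 14915 to 10685, 10539, 10488 and 11149 (log2 fold change -0.43 ± 0.03, adjusted p = 2.0e-16). *Tpm3*, a tropomyosin of the cytoplasmic filaments, moved the other way, from 10124, 10308, 10109 and 10512 to 12141, 11784, 12269 and 12303 (log2 fold change 0.24 ± 0.02, adjusted p = 1.1e-10), and other genes share 23.2% of its 50-base stretches. *Tagln2*, the widely expressed transgelin and the most abundant of these genes per length, had 9603, 9145, 9476 and 9800.3 against 8349, 8130.0, 8469 and 8660.2 (log2 fold change -0.18 ± 0.03, adjusted p = 2.5e-07). *Cnn3* fell by 0.09, and its call was lost without *Hdac3* KO replicate 4 (adjusted p = 0.014, edgeR). In this group of 6 genes, 5 were lower (83.3%, against 49.6% of all listed genes) and 1 was higher, with a median log2 fold change of -0.30 against 0.06 over the table.

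Of the 6 myosin light chains, 5 were lower (83.3%, against 49.6% of all listed genes) and 1 was higher. *Myl6*, the essential light chain of non-muscle and smooth muscle myosin II and the most abundant light chain (690 FPKM in EV MCECs), had 8392, 8241, 8702 and 9144 normalized counts in EV and 5814, 5536, 5882 and 5843 in *Hdac3* KO MCECs. Its groups were well separated (log2 fold change -0.58 ± 0.03, adjusted p = 6.9e-19). *Myl9*, the regulatory light chain of smooth muscle (ENSMUSG00000067818, plus strand of chromosome 2, 156775420 to 156781658), was close to the limit of detection. It had 12, 10, 5 and 13 reads in EV replicates 1 to 4 and 0, 1, 1 and 2 reads in *Hdac3* KO replicates 1 to 4. The ratio of its 4 reads to 40 reads, each group scaled to its library sizes, was 0.0917 (95% exact interval 0.0238 to 0.254, for counting error only). *Myl7*, the atrial regulatory light chain, was low too, with 53.4, 58.9, 59.6 and 72.7 against 22.1, 19.2, 19.8 and 18.8 normalized counts (log2 fold change -1.63 ± 0.19, adjusted p = 1.4e-09).

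The regulatory light chains of non-muscle myosin had smaller log2 fold changes. *Myl12a* had 14205, 13998, 14334 and 14747 in EV and 13495, 13074, 13458 and 13178 in *Hdac3* KO MCECs (log2 fold change -0.11 ± 0.02, adjusted p = 1.7e-04). *Myl12b* had 4123, 3981, 4079.7 and 4118 against 3649, 3646, 3717 and 3578 (log2 fold change -0.16 ± 0.03, adjusted p = 2.1e-06). Both were lower without overlap. *Myl6b*, a minor essential light chain, was higher, with 90.2, 99.95, 121 and 135 in EV and 152, 193, 139 and 146 in *Hdac3* KO MCECs (log2 fold change 0.48 ± 0.12, adjusted p = 4.0e-04). Because *Myl6* fell more than *Myl12a*, its part of the summed FPKM of the 6 light chains went from 54.4% ± 0.6 to 46.5% ± 0.6 and that of *Myl12a* from 31.0% ± 0.4 to 36.8% ± 0.3 (SD, n = 4). *Myl12a* and *Myl12b* share 16.4% and 25.4% of their 50-base stretches with other genes, and with each other.

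**Figure D2:**
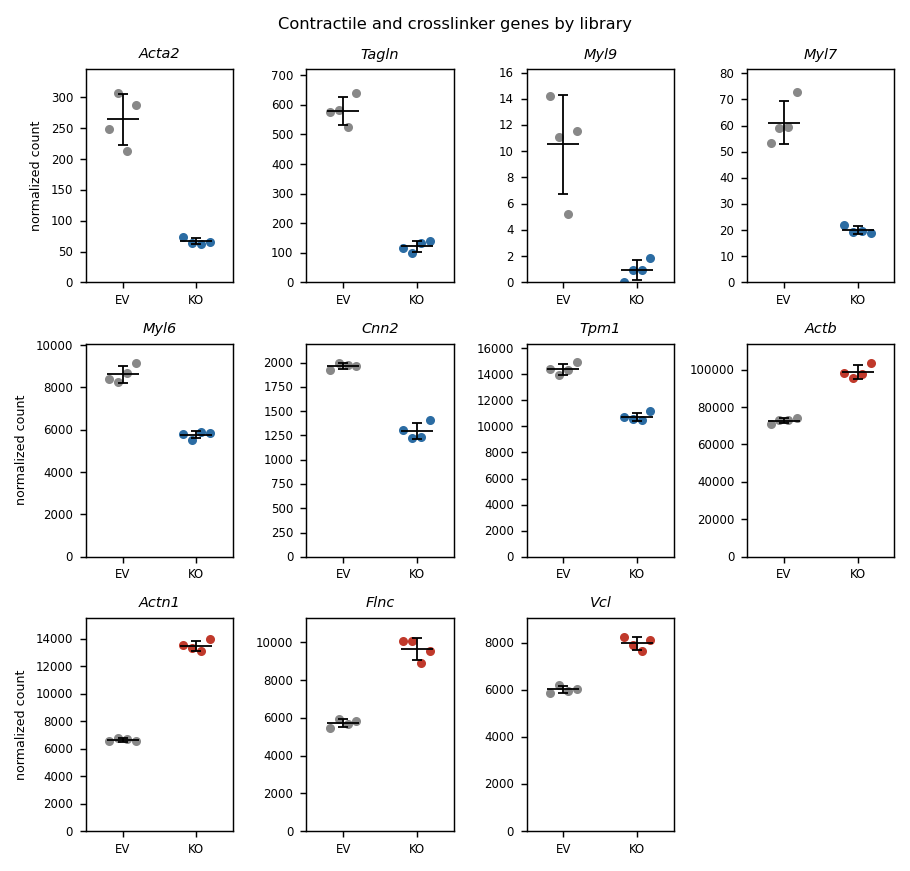
Normalized count (vertical axis, starting at 0) in each EV (grey) and *Hdac3* KO (coloured) library for 11 contractile and crosslinker genes; points are libraries, and bars the mean and SD of 4. *Acta2*, *Tagln*, *Myl9*, *Myl7*, *Myl6*, *Cnn2* and *Tpm1* are lower and *Actb*, *Actn1*, *Flnc* and *Vcl* higher in all 4 *Hdac3* KO libraries.

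Because many contractile genes are known targets of SRF, the promoters were searched for CArG boxes (a run of A and T bases between CC and GG) on both strands. The windows, from RefSeq on build GRCm38.p6, run from 250 bases before to 50 bases after each annotated start, and 64 of the 80 genes had at least 1. A CArG box was present in 7 of these 64 genes (10.9%) and in 1.76% of all 17492 genes with a window. Of the 34 genes with a window that were lower, 6 had a match, and of the 27 that were higher, 1 had a match. The stretches are printed 5′ to 3′ on the strand of the gene, with the CArG box in capitals, to show how close each comes to the start.
*Myl9* (first base 161 bases before the start, chr2:156775293-156775322, plus strand): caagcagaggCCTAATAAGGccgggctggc
*Myl7* (first base 61 bases before the start, chr11:5898824-5898853, minus strand): ccattcctctCCTTATTTGGgcctctgggt
*Cnn2* (first base 56 bases before the start, chr10:79988534-79988563, plus strand): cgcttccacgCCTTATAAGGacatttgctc
*Myl6* (first base 50 bases before the start, chr10:128493040-128493069, minus strand): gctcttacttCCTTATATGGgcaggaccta
*Myo1e* (first base 32 bases before the start, chr9:70207308-70207337, plus strand): gctgaattctCCATTTATGGacagattgcc
*Arpc4* (first base 250 bases before the start, chr6:113377863-113377892, plus strand): CCTAATTTGGtgcccaacctgaggtcgggc
*Vcl* (first base 227 bases before the start, chr14:20929161-20929190, plus strand): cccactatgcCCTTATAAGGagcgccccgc
*Myl9*, *Myl7* and *Myl6* are the light chains with the 3 lowest log2 fold changes of their group, and *Cnn2* is the calponin described above. *Vcl*, the 1 higher gene of the 7, has the same 10 bases as *Cnn2*. *Acta2* had no match in its window, which says nothing of sequence outside it or of boxes with another base in the run. *Tagln* and *Actb* had no window. A match is a sequence description and not a measured binding site.

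The MCAT element that TEAD factors bind (GGAATG, both strands) was found in 16 of the 64 genes (25.0%) and in 15.5% of all genes with a window. It was present in 10 of 34 lower and in 6 of 27 higher genes. In *Myl7* it lies next to the CArG box without overlapping it. Shown are the matches in *Acta2* and *Tpm1*, lower genes without a match to the CArG pattern searched, and in *Flnc*, a higher gene. In *Flnc* the element lies in reverse (CATTCC). It is in capitals, on the strand of the gene. *Flnc* has another annotated start nearby, and the same element begins 1 base before that one.
*Acta2* (first base 146 bases before the start, chr19:34255500-34255529, minus strand): gcagaacagaGGAATGcagtggaagagacc
*Tpm1* (first base 56 bases before the start, chr9:67049250-67049279, minus strand): gctgtcctaaGGAATGcggtcgcccccctg
*Flnc* (first base 104 bases before the start, chr6:29433142-29433171, plus strand): ggccgggcggCATTCCtgggaggccggcgc

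All 9 actin crosslinkers and adhesion linkers were higher (47.1% of all listed genes were). *Actn1*, the alpha-actinin of stress fibres and focal adhesions (ENSMUSG00000015143, minus strand of chromosome 12, 80167542 to 80260371), had the largest log2 fold change of the 9. It had 6533, 6782, 6739 and 6526 normalized counts in EV and 13549.6, 13323, 13125 and 13998 in *Hdac3* KO MCECs. The spread within each group was small beside the gap, at 6645 ± 135 (EV) and 13499 ± 375 (*Hdac3* KO; SD, n = 4), a log2 fold change of 1.02 ± 0.03, adjusted p = 2.3e-27. *Actn4*, the other widely expressed alpha-actinin, had 9297, 9709.6, 9200.0 and 9729 against 11799, 11701, 11206 and 11260.1, also without overlap (log2 fold change 0.28 ± 0.03, adjusted p = 1.6e-11). As *Actn1* rose more, it went from 41.3% ± 0.9 to 54.1% ± 1.0 of the alpha-actinin FPKM, and *Actn4* from 56.9% ± 0.8 to 44.4% ± 1.0 (SD, n = 4), which changed their order. *Actn3*, the muscle form, rose by 0.33 at a low level (4.20 FPKM in EV MCECs).

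The filamins are long proteins that join actin filaments into meshes and anchor them to membrane receptors. *Flnc*, the filamin of striated muscle, had 5483, 5946, 5697 and 5812 in EV and 10088, 10093, 8898 and 9551 in *Hdac3* KO MCECs. The lowest *Hdac3* KO library, replicate 3, was still far above the highest EV library, replicate 2 (log2 fold change 0.75 ± 0.03, adjusted p = 5.6e-21). *Flna*, the most abundant filamin, rose from 13420.2 ± 399 to 15769 ± 584 normalized counts (SD, n = 4), a log2 fold change of 0.23.

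*Vcl*, which encodes vinculin and reinforces adhesions under load, had 5869.7, 6209, 5949.8 and 6043 in EV and 8261, 7889, 7646 and 8105 in *Hdac3* KO MCECs. It was higher in each *Hdac3* KO library (log2 fold change 0.41 ± 0.03, adjusted p = 2.1e-15). The opposite-strand gene *Ap3m1*, which overlaps 25.5% of the exonic bases of *Vcl*, had a log2 fold change of 0.16. The talins link integrins to actin. *Tln1* had 12354, 13563, 12844 and 12592 against 14589, 14670.0, 13352 and 14179, and here the groups overlapped, EV replicate 2 being above *Hdac3* KO replicate 3 (log2 fold change 0.15 ± 0.03, adjusted p = 3.2e-05). *Tln2* also overlapped (log2 fold change 0.23 ± 0.07, adjusted p = 0.0025), and its call was lost without EV replicate 1 or 4 or *Hdac3* KO replicate 1 or 2 (0.19 to 0.20). Under library totals 7 of the 9 stayed called higher and the talins did not.

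The Arp2/3 complex, which starts new filaments as branches on old ones, split between its subunits. Of 8 genes, 5 were lower (62.5%, against 49.6% of all listed genes) and 3 were higher, of which *Actr2* alone stayed called with library totals. *Actr2*, which encodes the actin-related subunit Arp2, had 4231, 4351, 4223 and 4063 in EV and 5245, 5371, 5441 and 5192 in *Hdac3* KO MCECs (log2 fold change 0.33 ± 0.03, adjusted p = 4.4e-13), and *Actr3*, its partner Arp3, rose by 0.19. *Arpc5*, a small subunit, went the other way, with 2538, 2449.9, 2527 and 2578 against 1899, 1795, 1845 and 1797 (log2 fold change -0.46 ± 0.03, adjusted p = 2.7e-15). Its paralogue *Arpc5l* had a log2 fold change of 0.17 (0.053 and not called with library totals). Per length, *Arpc1b* was the most abundant of the 8 in EV MCECs (134 FPKM) and *Actr3* in *Hdac3* KO MCECs (118 FPKM, against 107 for *Arpc1b*). *Arpc1b* had 7707, 7846, 7889 and 7874 against 6933, 6789.8, 6698 and 6749, and *Arpc1a*, its paralogue, had 2852, 2853, 2817 and 2944 against 2490.4, 2401, 2488 and 2318. Both were lower in each *Hdac3* KO library (log2 fold changes -0.21 and -0.24), as were *Arpc3* at -0.20 and *Arpc4* at -0.13. Pseudogenes share 26.3% of the 50-base stretches of *Actr3*, whose call was lost with library totals (adjusted p = 0.011, edgeR). Of the related proteins outside the complex, *Actr8* of a nuclear chromatin remodeller was lower, with 459, 419, 487 and 504 against 368, 399, 391.7 and 376 (log2 fold change -0.29 ± 0.06, adjusted p = 7.8e-05). *Actr1a*, a subunit of the dynein adaptor dynactin, had 5521, 5447, 5475 and 5452 against 5654, 5355, 5759.5 and 5826, with overlap. It and *Actr10*, another dynactin subunit, had log2 fold changes of 0.05 and 0.08 (adjusted p = 0.11 and 0.018, edgeR). *Actr10* was called higher with DESeq2 size factors or without EV replicate 1 (adjusted p = 0.0077 and 0.0088, edgeR).

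Of the 5 genes of filament turnover, 2 were lower (40.0%, against 49.6% of all listed genes) and 3 higher, with log2 fold changes between -0.39 and 0.17. *Cfl1*, the main cofilin, which severs filaments, had 34179.6, 33210.2, 33893 and 35287 in EV and 37702, 36133, 38317 and 36612 in *Hdac3* KO MCECs, just apart (log2 fold change 0.12 ± 0.03, adjusted p = 3.7e-05). *Cfl2*, the muscle cofilin, had 2785, 2654, 2593 and 2477 against 2790.3, 2774, 2933 and 2989.9, and the highest EV value lay above the *Hdac3* KO minimum (log2 fold change 0.13 ± 0.03, adjusted p = 5.8e-04). *Pfn1*, the main profilin, which loads actin monomers with ATP, had 15047, 15000.3, 15408 and 15992 against 17791, 16798, 17303 and 17459 (log2 fold change 0.17 ± 0.03, adjusted p = 2.1e-07). The minor profilin *Pfn2* was lower, with 239, 214, 249 and 221 against 184, 176, 173 and 169 (log2 fold change -0.39 ± 0.08, adjusted p = 5.9e-05). *Gsn*, the severing protein gelsolin, fell by 0.13, from 7815, 7742, 8061 and 8289.9 to 7394, 7235, 7298 and 7314. The calls of *Cfl1*, *Cfl2* and *Pfn1* were lost with library totals, where their log2 fold changes were 0.00575, 0.0133 and 0.057.

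The heavy chains of non-muscle myosin II, which make the force of stress fibres and of the cleavage furrow, shifted towards *Myh9*. *Myh9* had 14125, 15821, 14480.1 and 15256 in EV and 17661, 18951, 16642 and 17731 in *Hdac3* KO MCECs (log2 fold change 0.25 ± 0.03, adjusted p = 1.3e-08). *Myh10* had 5603, 6248, 5660.4 and 5578 against 5057, 5274, 4562 and 5001, without overlap, EV replicate 2 standing above the other EV libraries (log2 fold change -0.21 ± 0.04, adjusted p = 1.3e-06). Of the summed FPKM of the 3 heavy chains, *Myh9* went from 73.0% ± 0.7 to 78.8% ± 0.3 and *Myh10* from 27.0% ± 0.7 to 21.1% ± 0.3 (SD, n = 4). *Myh14* was a trace, with 4 to 7 reads per EV library and 13 to 32 per *Hdac3* KO library (log2 fold change 1.83 ± 0.37, adjusted p = 2.8e-05).

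Of the 12 unconventional myosins, motors that carry membranes and bundles along actin, 9 were lower (75.0%, against 49.6% of all listed genes) and 3 were higher. *Myo10*, a motor of filopodial tips, had 1391, 1731, 1542 and 1645 in EV and 725, 795, 709 and 652 in *Hdac3* KO MCECs. Even the highest *Hdac3* KO library was far below the lowest EV library (log2 fold change -1.13 ± 0.05, adjusted p = 8.8e-20). *Myo7a*, known from hair cells of the inner ear, had 263, 253, 296 and 247 against 99.95, 95.1, 81.9 and 79.7 (log2 fold change -1.57 ± 0.10, adjusted p = 2.8e-16). *Myo1d*, a single-headed motor of membranes, had 5156, 5222, 5171 and 5084 against 3118, 3074, 3029.9 and 2956, with very little spread in either group (log2 fold change -0.76 ± 0.03, adjusted p = 3.1e-23). *Myo16*, *Myo6* (the motor that walks to the minus end), *Myo1e* and *Myo18a* fell by 0.74, 0.62, 0.53 and 0.40. *Myo9b* had a log2 fold change of -0.18, and its groups overlapped.

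The most abundant unconventional myosin, *Myo1c*, rose. It had 15348, 15915, 15195 and 15799 in EV and 20397, 20040.0, 19694 and 20592 in *Hdac3* KO MCECs, with no overlap (log2 fold change 0.37 ± 0.02, adjusted p = 1.0e-15). *Myo19*, the motor of mitochondria, had 313, 294, 316 and 317 against 510.3, 486, 526 and 610.4 (log2 fold change 0.78 ± 0.07, adjusted p = 1.0e-12). *Myo1g*, a form of blood cells, was at 2 to 6 reads per EV library and 10 to 15 per *Hdac3* KO library.

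LIM proteins of the Csrp and Pdlim families sit on stress fibres and alpha-actinin. Of 7 genes, 6 were lower (85.7%, against 49.6% of all listed genes) and none was called higher. *Csrp1*, the most abundant, had 3302, 3045, 3292 and 3384 in EV and 2696, 2603, 2713 and 2607 in *Hdac3* KO MCECs (log2 fold change -0.30 ± 0.03, adjusted p = 2.2e-10). *Pdlim1* had 2563, 2619, 2623 and 2717 against 1860.2, 1897, 1945 and 2015 (log2 fold change -0.45 ± 0.03, adjusted p = 9.7e-15), *Pdlim2* 587, 553, 541 and 582 against 389, 391, 431 and 429, and *Pdlim4* 151, 139, 146 and 151 against 121, 89.7, 102 and 98.4. These 4 genes did not overlap between the groups, and *Pdlim2* and *Pdlim4* fell by 0.46 and 0.52. *Csrp2*, a form of smooth muscle, had 249, 265, 249.7 and 251 against 199, 192, 197 and 153, *Hdac3* KO replicate 4 lying below the rest (log2 fold change -0.46 ± 0.09, adjusted p = 9.9e-06). *Pdlim5* fell by 0.28. *Pdlim7* was not called (log2 fold change 0.12, adjusted p = 0.020 in edgeR's test), but was called higher without EV replicate 4 or *Hdac3* KO replicate 2 or 3 (adjusted p = 0.0045 to 0.0075, edgeR).

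Of the intermediate filament genes, vimentin and 3 keratins were lower (57.1% of the 7, against 49.6% of all listed genes) and 3 keratins were higher. *Vim*, which encodes vimentin, the intermediate filament of mesenchymal and endothelial cells, had 48309, 49531, 49185 and 50320.1 in EV and 39606, 38375, 39341 and 40939 in *Hdac3* KO MCECs. It was lower in all 4 libraries (log2 fold change -0.32 ± 0.02, adjusted p = 6.0e-14). Keratins usual in epithelia were abundant in this line. *Krt19* (304 FPKM in EV MCECs) had 8759, 8862, 9160.3 and 9217 against 11276, 10916, 11093 and 10912, and *Krt14* (239 FPKM) had 7340.1, 7493, 7618 and 8068 against 5509, 5541, 5749 and 5706. They moved in opposite directions without overlap, by 0.30 ± 0.03 with adjusted p = 1.0e-12 and by -0.44 ± 0.03 with adjusted p = 5.1e-16. *Krt7*, a keratin of simple epithelia, had 415, 388, 383 and 408 against 189, 182, 162 and 179 (log2 fold change -1.16 ± 0.07, adjusted p = 2.4e-16).

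The pair *Krt8* and *Krt18*, which polymerise with each other in simple epithelia, was scarce and rose. *Krt8* had 32.0, 45.5, 52.2 and 37.2 in EV and 98.9, 107, 95.1 and 84.4 in *Hdac3* KO MCECs, and *Krt18* had 15.4, 11.1, 13.6 and 10.6 against 32.6, 54.0, 28.2 and 36.6. Neither gene overlapped between the groups (log2 fold changes 1.20 ± 0.15 with adjusted p = 8.6e-09 and 1.59 ± 0.26 with adjusted p = 1.0e-06). A pseudogene shares 26.9% of the 50-base stretches of *Krt8*. *Krt15* was lower at 8 to 14 reads per *Hdac3* KO library against 14 to 30 per EV library, counts that touch at 14 although the normalized counts do not overlap. Of the FPKM of the 6 keratins, *Krt19* went from 55.2% ± 0.5 to 67.1% ± 0.6 and *Krt14* from 43.4% ± 0.6 to 31.7% ± 0.7 (SD, n = 4).

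**Figure D3:**
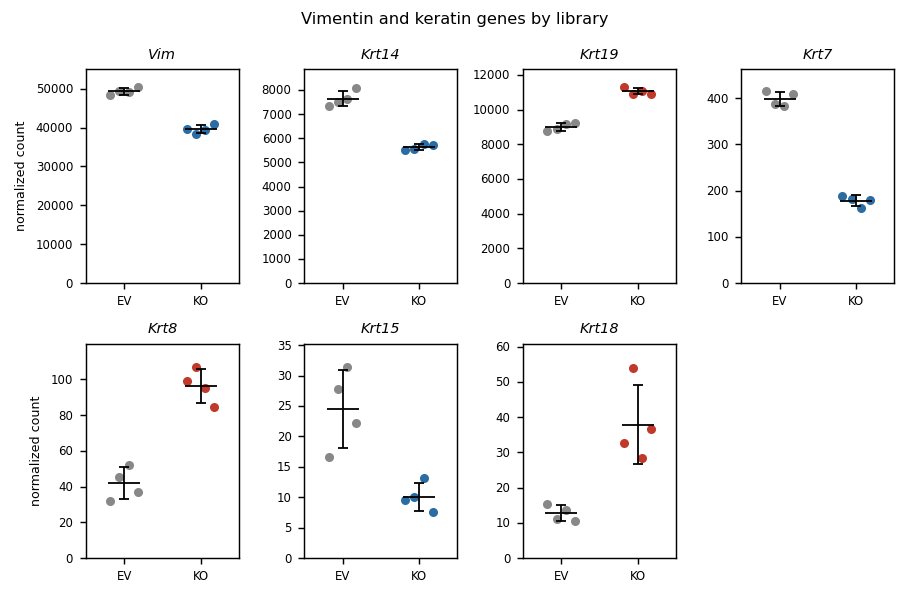
Normalized count (vertical axis, starting at 0) of vimentin and 6 keratins in each EV (grey) and *Hdac3* KO (coloured) library; points are libraries, and bars the mean and SD of 4. *Vim*, *Krt14*, *Krt7* and *Krt15* are lower and *Krt19*, *Krt8* and *Krt18* higher in all 4 *Hdac3* KO libraries, and the scale shows that *Krt8*, *Krt15* and *Krt18* are rare transcripts.

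All 4 alpha tubulins rose (47.1% of all listed genes were higher), with a median log2 fold change of 0.41 against 0.06 over the table. Except for *Tuba4a* they had a mean of at least 100 FPKM. At that level 71.1% of all listed genes were higher, and the median log2 fold change was 0.24. *Tuba1a* (ENSMUSG00000072235, minus strand of chromosome 15, 98949841 to 98953551), the alpha tubulin prominent in young neurons, had 4827, 4703, 4923 and 5189 in EV and 8134, 8053, 8307 and 8827 in *Hdac3* KO MCECs. Every *Hdac3* KO library was above every EV library by a wide margin (log2 fold change 0.76 ± 0.03, adjusted p = 8.5e-22). *Tuba1b*, the most abundant alpha tubulin, had 20142, 20532, 20547 and 21422 against 26405, 24844, 26412 and 26994 (log2 fold change 0.34 ± 0.03, adjusted p = 8.4e-14). *Tuba1c* had 5279.9, 5624, 5278 and 5308 against 6921, 6684, 6896 and 7222, and EV replicate 2 stood above the other EV libraries (log2 fold change 0.37 ± 0.03, adjusted p = 6.0e-14). *Tuba4a* had 939.9, 994, 919 and 1021 against 1333, 1267, 1335 and 1379 (log2 fold change 0.45 ± 0.04, adjusted p = 3.8e-12).

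The part of *Tuba1a* in alpha tubulin FPKM went from 16.7% ± 0.4 to 21.04% ± 0.41 and that of *Tuba1b* from 66.2% ± 0.2 to 62.4% ± 0.5 (SD, n = 4). These shares carry an uncertainty that the counts cannot settle, since *Tuba1a*, *Tuba1b* and *Tuba1c* share 72.9%, 66.7% and 52.7% of their 50-base stretches with each other or with further copies. For *Tuba4a* the figure is 0.81%, and its opposite-strand neighbour *Stk16*, which overlaps 37.3% of its exonic bases, was lower (log2 fold change -0.21).

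All 4 beta tubulins were called higher (47.1% of all listed genes were), with a median log2 fold change of 0.16 against 0.06 over the table, although 3 of them were not called under library totals. Except for *Tubb4a* they had a mean of at least 100 FPKM. Of all listed genes at that level 71.1% were higher, and their median log2 fold change was 0.24, above that of the beta tubulins. *Tubb5*, the most abundant (758 FPKM in EV and 753 in *Hdac3* KO MCECs, a unit scaled by library totals), had 37287, 37866, 37250.2 and 38587 in EV and 40749.7, 39588, 40665 and 41683 in *Hdac3* KO MCECs (log2 fold change 0.11 ± 0.02, adjusted p = 1.1e-04; -0.0099 and not called with library totals). *Tubb6*, a widely expressed isotype, had the largest change of the 4, with 3559, 3472, 3793 and 3545 against 4547, 4459, 4697 and 4897 (log2 fold change 0.37 ± 0.03, adjusted p = 5.9e-13). *Tubb4b* had 7077, 6858, 6757 and 6995 against 7775, 7594, 7861 and 8085, and *Tubb4a* 1266, 1228, 1227 and 1331 against 1447, 1403, 1388 and 1372, both apart between the groups (log2 fold changes 0.18 and 0.15). Under library totals *Tubb6* alone of the 4 stayed called, whereas all 4 alpha tubulins did, with a median of 0.29.

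Gamma tubulin, which seeds microtubules at centrosomes, and its ring complex parted. *Tubg1* had 1881, 1909, 1926 and 1982 in EV and 2367, 2348, 2254 and 2301 in *Hdac3* KO MCECs and was higher (log2 fold change 0.27 ± 0.03, adjusted p = 2.1e-09). The ring proteins *Tubgcp2*, *Tubgcp6* and *Tubgcp4* fell by 0.31, 0.22 and 0.17. *Tubgcp2* had 1182, 1125, 1157 and 1153 against 935, 949.6, 921 and 924, and *Tubgcp6* had 775, 866, 791 and 782 against 667, 722, 701 and 672. For *Tubgcp4*, with 625, 627, 638 and 606 against 592, 523, 539 and 566, the groups came close, and the call was lost in DESeq2's Wald test (adjusted p = 0.011) and without EV replicate 3, *Hdac3* KO replicate 2 or *Hdac3* KO replicate 3. The opposite-strand gene *Trp53bp1*, which overlaps 26.1% of the exonic bases of *Tubgcp4*, had a log2 fold change of -0.19.

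**Figure D4:**
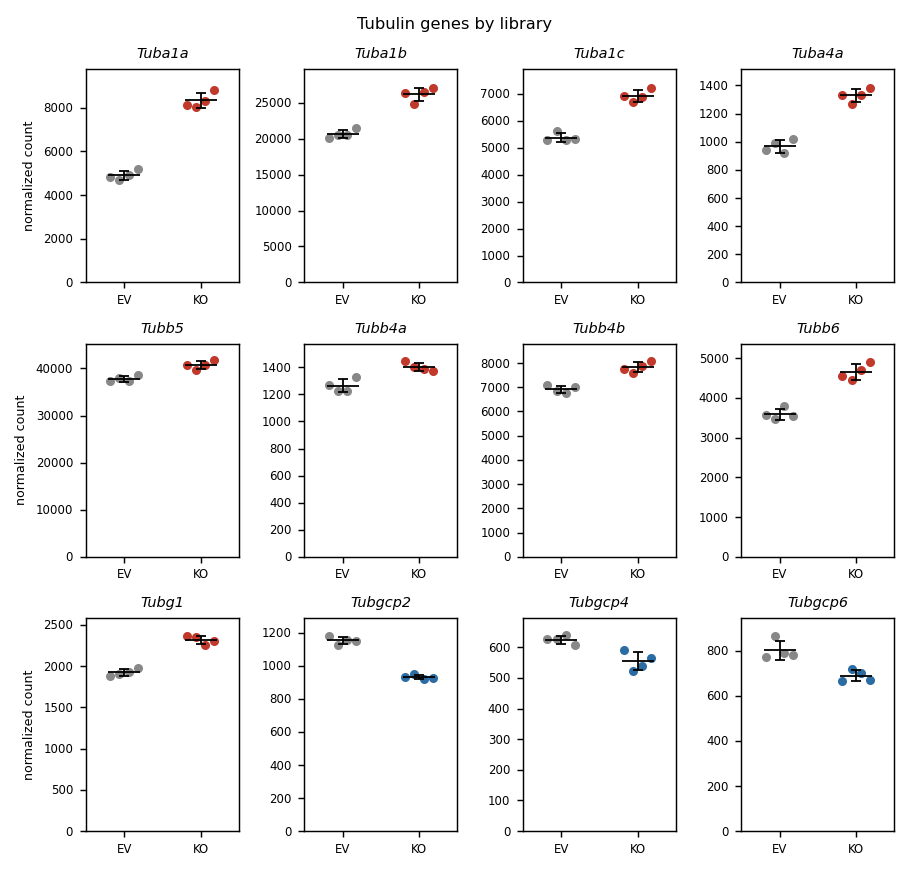
Normalized count (vertical axis, starting at 0) of 12 tubulin and gamma tubulin complex genes in each EV (grey) and *Hdac3* KO (coloured) library; points are libraries, and bars the mean and SD of 4. The 8 alpha and beta tubulins and *Tubg1* are higher (red) and the 3 *Tubgcp* genes lower (blue) in *Hdac3* KO MCECs, with the largest log2 fold change in *Tuba1a* (0.76); *Tubb5* turns to -0.0099 under library totals.

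The genes were also counted by level. Of the 27 genes with a mean of at least 100 FPKM, 16 were higher (59.3%) and 10 lower (37.0%), where 71.1% and 25.7% of the 626 listed genes at that level were. In the 24 genes under 10 FPKM, 8 were higher (33.3%) and 16 lower (66.7%), against 33.2% and 64.6% of 3623 listed genes. The median size of the log2 fold change was 0.25 in the former and 0.76 in the latter, and 0.32 and 0.58 over all listed genes at these levels. As the table holds only genes that passed a significance cut-off, a scarce gene had to change more to be listed. The strongest falls (*Tagln*, *Acta2*, *Myl9*, *Myl7*, *Myo7a*) were in transcripts of low or moderate level. Of the 27 genes with a mean of at least 100 FPKM, *Actn1* alone changed by more than 1 (0.91 with library totals). Its mean over both groups passed 100 FPKM only through its rise, from 94.6 FPKM in EV to 177 in *Hdac3* KO MCECs.

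**Figure D5:**
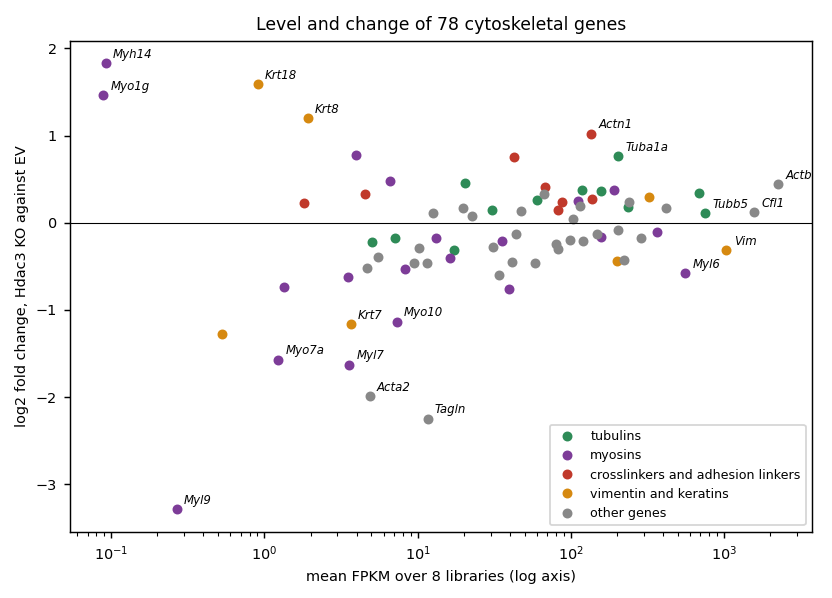
Mean FPKM over the 8 libraries (horizontal log axis) against log2 fold change (vertical axis, *Hdac3* KO against EV MCECs) for 78 of the 80 genes, coloured by class. Changes of more than 1 in size lie mostly at the left, under 10 FPKM. *Actn1* is the only one with a mean above 100 FPKM (0.91 with library totals), being at 94.6 FPKM in EV and 177 in *Hdac3* KO MCECs.

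Regulators of these filaments were read from lists of pathway genes, whose counts stand beside 47.1% higher and 49.6% lower over all listed genes. Of 26 actomyosin regulators, 19 were in the table, and 12 were higher (63.2%) and 6 lower. *Mylk*, the kinase that switches on smooth muscle myosin, had 363, 444, 412 and 419.5 in EV and 254, 257, 244 and 253 in *Hdac3* KO MCECs, and *Ppp1r12b*, a targeting subunit of the opposing phosphatase, had 979, 1112, 1107 and 1063 against 606, 630.3, 556 and 559. Both fell without overlap (log2 fold changes -0.70 ± 0.07 with adjusted p = 2.9e-11 and -0.86 ± 0.05 with adjusted p = 2.2e-17). *Rnd1*, a small GTPase that loosens stress fibres, had 2228, 2154, 2218 and 2345 against 4482, 4394, 4599 and 4485, and *Rhob*, a small GTPase of endosomes, 1504, 1575, 1595 and 1632 against 2582, 2521, 2562 and 2634 (log2 fold changes 1.004 ± 0.030 with adjusted p = 1.4e-25 and 0.71 ± 0.03 with adjusted p = 4.5e-20). *Rock2*, a kinase that promotes contraction, rose by 0.50 and *Rhoa*, a small GTPase that drives stress fibre assembly, by 0.19. Neither was checked under library totals, which move all genes by about -0.12. *Pak2* was not called.

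Among 38 genes of filament nucleation and filament ends, 21 were in the table, and 14 of these were lower (66.7%) and 7 higher. The formins *Daam2* and *Fhod3* had the strongest falls: *Daam2* had 1263, 1254, 1353 and 1257 against 354, 388, 406 and 378 normalized counts, and *Fhod3* 161, 179.9, 191 and 168 against 73.7, 81.4, 79.1 and 81.6. Their log2 fold changes were -1.75 ± 0.05 with adjusted p = 1.8e-26 and -1.15 ± 0.11 with adjusted p = 7.1e-12. *Fmnl2*, another formin, went from 432, 473, 423 and 482 to 297, 312, 305 and 291, and the capping protein *Capg* rose from 1228, 1273, 1312 and 1286 to 1784, 1839.7, 1958 and 1830.1 (log2 fold changes -0.59 ± 0.06 with adjusted p = 2.8e-10 and 0.54 ± 0.04 with adjusted p = 1.7e-15).

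Of 39 further actin binding, muscle and membrane linker genes, 27 were in the table, 16 of them higher (59.3%) and 10 lower. *Synpo*, the actin bundler synaptopodin, had 4039, 4112, 4009.7 and 4079 in EV and 1493, 1471, 1389.7 and 1325 in *Hdac3* KO MCECs (log2 fold change -1.52 ± 0.03, adjusted p = 2.2e-29). *Svil*, which encodes supervillin, a membrane linker that binds myosin II, had 1283, 1405, 1349 and 1418 against 530.3, 562, 518 and 497, and *Nexn*, an actin binding protein of muscle, 142, 144, 147 and 143 against 89.4, 79.6, 87.6 and 69.4 (log2 fold changes -1.37 ± 0.05 with adjusted p = 3.9e-24 and -0.83 ± 0.11 with adjusted p = 3.2e-08). These 3 genes were lower in all *Hdac3* KO libraries. *Ezr*, the membrane linker ezrin, rose, with 40042, 40782, 40138 and 40610.3 against 73082, 73462, 72378 and 71763 (log2 fold change 0.85 ± 0.02, adjusted p = 9.6e-27), and its relatives *Msn* and *Rdx* rose by 0.72 and 0.24. *Nes* was not called.

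The factors that read the actin state were in part measured. Of 12 SRF and YAP/TEAD factors, 8 were in the table, 5 of them higher (62.5%) and 3 lower, and *Srf* was not analysed here. *Yap1* had 3800.0, 3758, 3830.0 and 3742 in EV and 4719, 4776, 4874 and 4760.0 in *Hdac3* KO MCECs, and *Vgll3*, a TEAD cofactor, 3188, 3328, 3246 and 3125 against 4208, 4258, 4237 and 4501 (log2 fold changes 0.34 ± 0.03 with adjusted p = 9.2e-14 and 0.42 ± 0.03 with adjusted p = 5.5e-15). *Tead3* had 1054, 1076, 1066 and 1103 against 655, 642, 658 and 658, and *Vgll4*, a TEAD repressor, 847, 921, 980.0 and 917 against 621, 683, 588 and 623 (log2 fold changes -0.72 ± 0.04 with adjusted p = 3.1e-17 and -0.54 ± 0.05 with adjusted p = 6.9e-12). *Mkl2*, an actin-sensing SRF cofactor, fell by 0.32. Their reporter genes split, 5 lower and 5 higher of 12 (41.7% each), with log2 fold changes from -2.90 to 1.87. The genes at both ends of that range are not described here. *Egr1*, an immediate early gene, had 1219, 1234, 1154 and 1238 against 385, 389, 377 and 378, and *Fos*, another, 140.0, 128, 118 and 152 against 53.7, 57.6, 53.7 and 72.2 (log2 fold changes -1.66 ± 0.05 with adjusted p = 2.2e-26 and -1.18 ± 0.13 with adjusted p = 3.7e-10). *Ankrd1*, a YAP reporter gene, had 671, 679, 664 and 689 in EV and 1516, 1597, 1703 and 1825 in *Hdac3* KO MCECs and rose without overlap (log2 fold change 1.30 ± 0.05, adjusted p = 4.4e-23). *Axl* and *Junb* were not called.

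Of 45 microtubule regulators, 30 were in the table, 17 of them lower (56.7%) and 12 higher. *Map1b*, a microtubule stabiliser of growing axons, had 1731, 1855, 1787 and 1712 against 3671, 4042, 3438 and 3925 (log2 fold change 1.09 ± 0.04, adjusted p = 2.2e-23), and the spindle factor *Tpx2* 4971, 5107, 4881 and 4874 against 7407, 7609, 7455 and 7674 (log2 fold change 0.60 ± 0.03, adjusted p = 7.0e-21). Both were higher without overlap. *Tppp*, which bundles microtubules, had 284, 272, 304 and 274 against 177, 177, 179.8 and 149, and *Mapre3*, a plus end binding protein, 579, 549, 540.1 and 631 against 382, 368, 346 and 352 (log2 fold changes -0.73 ± 0.08 with adjusted p = 6.0e-10 and -0.67 ± 0.06 with adjusted p = 3.2e-12). *Mapre1* was not called.

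Of 10 genes of septins and the cytokinetic ring, 8 were in the table, and 7 were higher (87.5%, against 47.1% of all listed genes) and 1, *Sept6*, was lower. Their median log2 fold change was 0.32, against 0.06 over the table. *Anln*, the scaffold of the contractile ring, had 6386, 6483, 6551 and 6336 against 8611, 8864, 8914 and 9046 (log2 fold change 0.46 ± 0.03, adjusted p = 7.8e-18), and *Racgap1*, a GTPase-activating protein of dividing cells, 5760.5, 5723, 5813 and 5627 against 7178, 6976, 7092 and 7359 (log2 fold change 0.32 ± 0.03, adjusted p = 2.5e-13). The septins *Sept11* and *Sept7* had 5694, 5694, 5729 and 5787 against 8178, 8397, 8103 and 8415 and 4699.5, 4482, 4379 and 4086 against 5279, 5534, 5808 and 5634 (log2 fold changes 0.53 ± 0.03 with adjusted p = 1.2e-19 and 0.34 ± 0.03 with adjusted p = 3.1e-11). None of these 4 genes overlapped between the groups.

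Markers of other cell types moved beside these genes, in a table with 49.6% of genes lower and 47.1% higher. Summed FPKM of the 5 of 12 smooth muscle and pericyte markers in the table was 36.6 to 43.1 in EV and 16.5 to 18.5 in *Hdac3* KO MCECs. Of these, *Acta2* and *Tagln* are among the 80 genes, *Pdgfrb* fell by 2.29, and *Mcam* and *Des* rose by 0.69 and 1.62. *Myh11*, *Cnn1*, *Lmod1* and *Myocd*, which define contractile smooth muscle, were not analysed here. The 7 of 12 fibroblast markers summed to 1957 to 2050 against 1719 to 1808, with 5 lower and 2 higher. The 5 of 12 epithelial markers, all of them keratins described above, summed to 535 to 569 against 507 to 517, and *Cdh1* and *Epcam* were not analysed here. The 7 of 16 endothelial markers summed to 121 to 123.1 against 91.3 to 94.4, with 6 lower and 1, *Pecam1*, higher. For 3 of 15 cardiomyocyte markers the sums were 5.71 to 7.57 against 2.72 to 3.47, with 2 lower and 1 higher, the latter with overlap between the groups. *Myl7*, also among the 80 genes, made up most of the EV sum (mean 5.51 FPKM in EV and 1.66 in *Hdac3* KO MCECs). For 2 of 10 blood markers the sums were 5.62 to 5.89 against 11.4 to 13.0, with both called higher. The groups overlapped in 1 of these 2 genes. The part of a change in cell makeup in the results was not tested.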

How the data were processed

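Counts of 8 bulk RNA-Seq libraries were analysed (4 EV and 4 *Hdac3* KO MCEC samples), with groups and replicate numbers taken from the sample titles. The authors had libraries sequenced by a provider (Illumina NextSeq500) and mapped them with tophat2 and bowtie2 on mm10. The labels also name CASAVA and DESeq 1.6.3. The program that assigned reads to genes, its annotation and its strand setting are not given in the sources used here. The deposited counts are raw whole-number reads per gene, and the FPKM values, computed by the authors, follow from count, gene length and library total. The authors' fold changes, p-values and group means were not used, except that the largest of their adjusted p-values showed that the table is a selection (all under 0.05).

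Library totals were recovered from count, length and FPKM, and scaled by TMM factors. Genes were tested with edgeR 4.0.16 (quasi-likelihood, R 4.3.3, limma 3.58.1), samples of both groups only, no filter, Benjamini-Hochberg adjustment over 8278 genes and a cut-off of 0.01. The selection used these same libraries, so calls describe the listed genes. Beyond counting noise, libraries of a group varied by 2.82% (coefficient of variation). Reads carry no molecular identifiers, so intervals cover counting error only. Groups were also compared by the two-sided exact permutation test over 70 arrangements on log2(normalized count + 1).

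The members and lists were chosen with earlier results of these data known. In each role group, values per library are given for up to 4 called genes with the largest change and at least 100 normalized counts on average in the higher group, and for the gene with the highest mean FPKM; up to 4 genes of each pathway list follow the same rule. *Myl9*, *Myl7*, *Myh14*, *Myo1g*, *Krt8*, *Krt15*, *Krt18* and a few further members fall outside it and were named after their values were seen. Among the pathway genes, *Rock2*, *Rhoa*, *Msn*, *Rdx*, *Mkl2*, *Sept6* and those not called also fall outside it. These pathway genes were not checked under the alternatives. A few genes that the rule names are not reported here, and 2 of the 80 are not drawn; all counts include them. Exon overlaps and shared 50-base stretches come from GENCODE transcripts of mm10 and promoter windows from RefSeq (GRCm38.p6). Symbols matched a window for 64 of 80 genes. The alternatives were DESeq2 1.42.0, other scalings, a mean of at least 10 counts, the replicate block, each library left out, other cut-offs, protein-coding genes, and pseudocounts of 0.1 and 10; genes with under 10% shared stretches were taken after seeing the data. The test was checked on simulated data in which few genes changed, so that check does not cover a table where most genes change. Figures were drawn with matplotlib 3.10.9.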

Additional observations from a re-analysis of the deposited data

Results flagged for a closer look

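Each gene with values per library was checked, in each group of 4 libraries, for a library whose gap to the nearest other relative to the range of the group exceeded Dixon's 95% critical value. Of 238 groups, 12 had such a library, where chance gives about 1 in 20, or 11.9. The values below are normalized counts. Of the cytoskeletal genes, *Myh10* had 6248 in EV replicate 2 against 5578 to 5660.4 in the other EV libraries. *Myo16* had 234 in EV replicate 2 against 212 to 215, and *Myo19* had 294 in the same library against 313 to 317. *Tuba1c* had 5624 in EV replicate 2 against 5278 to 5308. *Csrp2* had 265 in EV replicate 2 against 249 to 251, and 153 in *Hdac3* KO replicate 4 against 192 to 199. Of the pathway genes, *Daam2* had 1353 in EV replicate 3 against 1254 to 1263, *Tead3* had 642 in *Hdac3* KO replicate 2 against 655 to 658, and *Tppp* had 149 in *Hdac3* KO replicate 4 against 177 to 179.8. Of the markers, *Flt1* had 318 in *Hdac3* KO replicate 1 against 281 to 283, *Eng* had 1356 in EV replicate 1 against 1462 to 1478, and *Fn1* had 95962 in *Hdac3* KO replicate 3 against 106132 to 107885. None of these 11 genes changed the side of the cut-off when the library was left out.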

How the results depend on the processing

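Requiring a log2 fold change of more than 0.5 in size left 15 lower and 9 higher of the 80 genes, and 1935 lower and 1249 higher of all listed genes. Library totals without TMM factors gave 4120 lower and 2671 higher genes over the table, and 42 lower and 25 higher of the 80, with 4 in place of 5 higher by more than 1. They reversed the sign of *Actr10* (-0.035), *Actr1a* (-0.072), *Pdlim7* (-5.7e-05) and *Tubb5* (-0.0099). *Tubb5* also lost its call, as did 9 genes that kept their sign: *Actr3*, *Arpc5l*, *Cfl1*, *Cfl2*, *Pfn1*, *Tln1*, *Tln2*, *Tubb4a* and *Tubb4b*. These are genes with small changes, and this scaling moves all genes by about -0.12. DESeq2's Wald test gave 41 lower and 35 higher, cut-offs of 0.05 and 0.001 gave 42 and 37, and 39 and 34, and a mean of at least 10 counts gave 41 and 34, with *Myl9* and *Myo1g* not fitted. With each library left out in turn, 41 to 42 were lower and 34 to 36 higher, and *Pdlim7* and *Actr10* gained a call. No gene reversed among the 80 and the list genes that the rule names. Leaving out genes that share 10% or more of their 50-base stretches left 37 lower and 27 higher of 67. The replicate numbers pair nothing that the sources name, and same-numbered libraries did not deviate together (mean correlation -0.02, from -0.11 to 0.12, over 7182 genes, against 0.007 for other pairs, genes not being independent replicates). With the replicate block 42 were lower and 35 higher, and 1 of 4 numbers correlated best with its own.

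Genes outside the deposited selection were not analysed here, so the counts of a role group leave them out. *Myl9*, *Myh14*, *Myo1g*, *Krt15* and *Krt18* rest on few reads. Alpha tubulins share most of their sequence, and the strand setting behind genes with opposite-strand neighbours is not given in the sources used here. Depth is ample for the abundant genes, where the spread between libraries sets the precision.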
